A study of Ovis aries with 57 samples.

Results

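Genes of prostaglandin synthesis, transport and breakdown were followed in the lining of the sheep uterus and in the conceptus, the embryo with its membranes, over early pregnancy. The members came from a list of 10 symbols and are the 7 that the tables hold under those symbols, of 25174 features in all: PTGS2, PTGS1, PTGES, PTGES3, PTGIS, SLCO2A1 and HPGD. PTGES2, ABCC4 and PTGER4 were not analysed under their own symbols. The tables list the receptor EP4 as PGE2R-EP4, and its values are given beside the members, a choice made after the tables were read.

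RNA was sequenced from luminal epithelium (LE), which faces the uterine cavity, and glandular epithelium (GE), at days 10, 12, 14, 16 and 20 of pregnancy (n = 4 libraries per tissue and day), and from whole conceptuses at day 12 (n = 5) and days 14, 16 and 20 (n = 4 each). No group was treated or carried a mutation, and the labels state no breed or age. LE and GE were recognised by eye on stained frozen sections and cut out by laser, both from the same slide of an animal, but the labels do not say which LE and GE libraries share an animal. The LE and GE libraries of day 14 carry numbers with a B, apart from the run of numbers on the other days. The labels do not say why. In LE and GE, a change to or from day 14 thus cannot be told apart from what this numbering stands for. The RNA of LE, GE and day 12 conceptuses was amplified before library preparation and that of later conceptuses was not, per the protocols and the series design. The label of the day 12 conceptuses itself reads ribosome-depleted, as on the later days.

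As background, PTGS2 and PTGS1 are the cyclooxygenases that turn arachidonic acid, released from membranes by phospholipases, into the common precursor of all prostaglandins. Terminal synthases then make the single prostaglandins, SLCO2A1 carries them across membranes, and HPGD, 15-hydroxyprostaglandin dehydrogenase, starts their inactivation. In sheep, prostaglandins of the endometrium and the conceptus are known for their part in luteolysis and in the elongation of the conceptus.

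Mapped reads per library, as recovered from the RPKM values, ranged from 8.04 M to 26.01 M in LE, from 7.87 M to 22.33 M in GE and from 14.62 M to 27.38 M in the conceptus. Levels are given as RPKM, a gene's reads after scaling for its length and for the depth of the library. Between 4528 and 5997 genes reached 1 RPKM in LE on day 14, beside a median of 6918 over all LE libraries. The gland transcription factor FOXA2 lay between 0 and 0.06 RPKM in LE and between 0.04 and 2.25 RPKM in GE. The 4 gland markers summed to 5366 to 11225 RPKM in GE and to 247 to 2283 RPKM in LE on day 10, without overlap. On each later day the sums of LE and GE overlapped. They were 112 to 571 RPKM in LE and 481 to 1061 RPKM in GE on day 12. Day 14 had 275 to 1293 RPKM in LE and 197 to 1369 RPKM in GE. Day 16 had 1677 to 6282 RPKM in LE and 417 to 3829 RPKM in GE, and day 20 had 172 to 4194 and 2817 to 8588 RPKM. Interferon tau, the trophectoderm's own signal, is listed as TP-1 and lay between 3914 and 10689 RPKM in day 16 conceptuses. Since these are bulk samples, fewer cells of a type and less RNA per cell cannot be told apart.

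PTGS2 (ENSOARG00000007592), the inducible cyclooxygenase, was higher in LE than in GE on every day. LE PTGS2 stood at 3.18, 19.7, 152 and 1.54 RPKM on day 10, against 0.12, 0.15, 0.11 and 0.27 RPKM in GE. On day 12 the LE libraries read 269, 251, 137 and 334 RPKM, against 3.00, 0.90, 0.09 and 1.93 RPKM in GE. At day 14, PTGS2 had 187, 146, 497 and 256 RPKM in LE and 4.95, 1.32, 7.05 and 0.65 RPKM in GE. Even the lowest LE library of each of these days lay above the highest GE library of its day. Day 16 gave 326, 119, 75.5 and 41.25 RPKM in LE, against 0.02, 1.97, 0.31 and 0.09 RPKM in GE. Day 20 gave 65.9, 175, 263 and 124 RPKM in LE and 3.91, 2.12, 3.05 and 2.44 RPKM in GE. Ranges of LE and GE overlapped on none of the 5 days, and the ratio of mean RPKM was 272, 167, 77.7, 235 and 54.5 at days 10, 12, 14, 16 and 20. Single libraries moved these ratios: it was 50.1 on day 10 without LE replicate 05, 254 on day 12 without GE replicate 10, 118 on day 14 without GE replicate B05, and 131 and 1002 on day 16 without LE replicate 25 and GE replicate 28.

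On the log2(RPKM + 1) scale, which understates low values, limma gave PTGS2 a difference of LE minus GE of 3.54 ± 0.74 on day 10, 6.74 ± 0.74 on day 12, 6.05 ± 0.74 on day 14, 6.20 ± 0.74 on day 16 and 5.20 ± 0.74 on day 20 (± SE). The adjusted p was 0.000727 on day 10, 5.83e-08 on day 12, 5.54e-08 on day 14, 8.85e-08 on day 16 and 4.73e-06 on day 20. PTGS2 was past the threshold of 0.05 on each day whichever library was left out, and the smallest difference was 2.38 on day 10 without LE replicate 05. Of the 11131 genes tested, 14.3, 12.2, 35.8, 22.5 and 10.7% were called in either direction at days 10, 12, 14, 16 and 20. Called higher in LE were 2.65, 3.03, 8.75, 6.76 and 4.29% of all genes tested, and called lower were 11.6, 9.17, 27.1, 15.7 and 6.44%. The median difference of all genes was -0.45, -0.38, -0.46, -0.30 and -0.16 at those days with RPKM as deposited, and -0.04, -0.09, -0.18, -0.06 and -0.04 with TMM scaling.

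**Figure D1:**
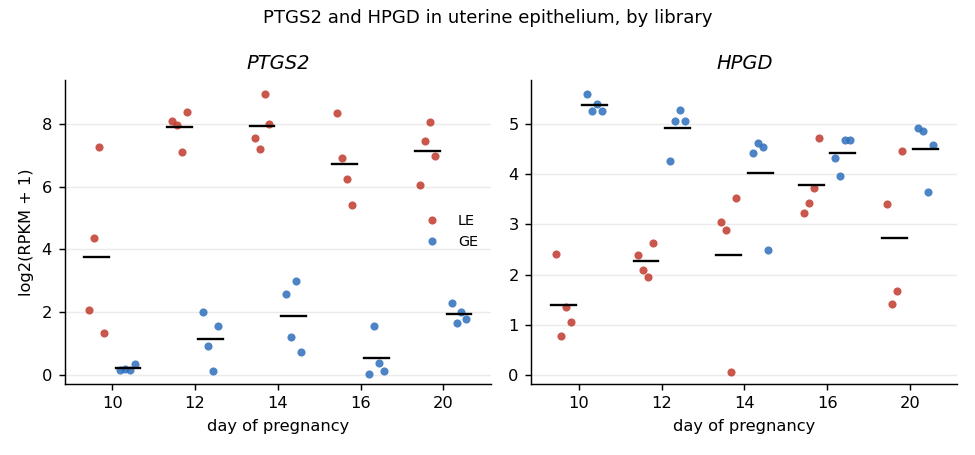
PTGS2 (left) and HPGD (right) in each LE (red) and GE (blue) library, as log2(RPKM + 1) by day of pregnancy, with black bars at the mean of 4 libraries. All LE points of PTGS2 lie above the GE points of their day, while for HPGD the GE points lie above the LE points on days 10 and 12 and the ranges meet on later days.

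Over the days, PTGS2 in LE was lowest on day 10, with a mean of 44.2 ± 72.5 RPKM, and stood at 248 ± 82.0 RPKM on day 12, 271 ± 157 RPKM on day 14, 140.3 ± 128 RPKM on day 16 and 157 ± 83.7 RPKM on day 20 (SD, n = 4 each). The day 10 libraries themselves differed widely: replicate 05, at 152 RPKM, lay inside the range of day 12, and the other 3 lay below it. Day 12 was higher than day 10 by 4.13 ± 0.87 on the log2(RPKM + 1) scale (limma, adjusted p = 0.0305), where 0.565% of 9203 genes were called. None of the later steps was called for PTGS2: the adjusted p was 0.982 for day 14 against day 12, 0.383 for day 16 against day 14 and 0.976 for day 20 against day 16. Neighbours in the order of the 5 day means overlapped.

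That day 12 call depended on single libraries. Leaving out day 10 replicate 01, 03 or 07 gave an adjusted p of 0.190, 0.0548 or 0.163. Leaving out day 12 replicate 09, 11 or 15 gave 0.122, 0.0937 or 0.0985. The change itself stayed between 3.32 and 5.29. Without day 10 replicate 05 it was largest, at 5.29, and the adjusted p was 0.000558. With no filter on low values the adjusted p was 0.0853, and edgeR on recovered reads gave a log2 fold change of 2.32 and an adjusted p of 0.537. The gland markers summed to 1914, 566, 247 and 2283 RPKM in day 10 replicates 01, 03, 05 and 07, so the library with the most PTGS2 had the smallest sum. The 8 stromal markers moved with the step without overlap, at 255 to 484 RPKM in LE on day 12 and 74.7 to 169.6 RPKM on day 10. The part of either marker list in the result was not tested.

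In GE, PTGS2 averaged 0.163 ± 0.0737 RPKM on day 10, 1.48 ± 1.26 RPKM on day 12, 3.49 ± 3.03 RPKM on day 14, 0.598 ± 0.923 RPKM on day 16 and 2.88 ± 0.788 RPKM on day 20 (SD, n = 4 each). The libraries of day 20 lay above those of day 10 and of day 16 without overlap. Limma called no step, with the smallest adjusted p at day 16 against day 14 (log2(RPKM + 1) change -1.35 ± 0.48, adjusted p = 0.0537). It was 0.0326, 0.0133 and 0.0289 without day 14 replicate B03, day 14 replicate B07 and day 16 replicate 28, and 0.0402 with TMM scaling. The change from day 10 to day 12 was larger in LE than in GE by 3.19 ± 1.05, a difference that was not called (adjusted p = 0.301), that was called without LE day 10 replicate 05 (4.36, adjusted p = 0.00907), and that was -0.85 with edgeR on recovered reads.

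PTGS1, the constitutive cyclooxygenase, stayed low in both epithelia. It reached 2.27 RPKM in LE and 0.70 RPKM in GE at most, and 5 of 20 LE libraries and no GE library held 1 RPKM or more. On day 16 the LE libraries had 0.08, 2.27, 1.28 and 1.34 RPKM, against 0, 0.60, 0 and 0.16 RPKM in GE. PTGS1 passed the filter of 1 RPKM in 4 libraries through 5 LE libraries only, 3 of them of day 16, so the test of LE against GE could hardly fail to favour LE there. Replicates 27, 29 and 31 of LE lay above all GE libraries of that day and replicate 25 did not. With that limit, LE minus GE of PTGS1 on day 16 was 0.84 ± 0.27 on the log2(RPKM + 1) scale (limma, adjusted p = 0.0212). The call ended with a pseudocount of 0.1 (adjusted p = 0.0545), with edgeR on recovered reads (0.118), without LE replicate 27 (adjusted p = 0.116), 29 (0.0551) or 31 (0.0561) and without GE replicate 26 (0.0655) or 30 (0.0657). No day step was called in LE, the nearest being day 16 against day 14 at 0.96 ± 0.34 (adjusted p = 0.0623, and 0.0234 without day 16 replicate 25). Interferon tau stood at 0, 6.57, 2.81 and 12.7 RPKM in LE day 16 replicates 25, 27, 29 and 31, and its part in the result was not tested.

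PTGES, the inducible synthase of prostaglandin E, appeared in every LE library on day 16 alone. LE held 0.31, 0, 0 and 9.70 RPKM on day 10 and 0 in all 4 libraries on day 12, where 3 reads over the group, the limit that a count of 0 allows, would make 0.124 RPKM. The LE values were 0, 5.17, 0 and 0 RPKM on day 14 and 4.33, 3.15, 15.9 and 45.1 RPKM on day 16. On day 20 they were 6.12, 0, 0.24 and 4.03 RPKM. Day 16 overlapped with day 14 only through replicate B04 of day 14. GE never passed 0.52 RPKM, and its day 16 libraries held 0.12, 0, 0 and 0.20 RPKM, 3 reads in all, against 678 reads in LE. The ratio of those reads per exon read of the group was 221, with a 95% exact interval of 75.2 to 1072 that covers counting error only. LE replicate 31 gave the largest part of the LE reads, having the highest RPKM, 45.1, and the most mapped reads of its group.

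In LE, PTGES rose at day 16 against day 14 by 2.86 ± 0.83 on the log2(RPKM + 1) scale (limma, adjusted p = 0.0275, where 12.4% of genes were called). PTGES entered the LE test with 8 libraries at 1 RPKM or more, 4 of them from day 16. The adjusted p passed 0.05 without LE day 14 replicate B02 (0.0504), B06 (0.0620) or B08 (0.0589), without day 16 replicate 29 (0.0659) or 31 (0.112), with no filter on low values (0.0785), with RLE scaling (0.0607), with days 14 and 16 alone (0.0898) and with edgeR on recovered reads (0.241). Since no GE library reached 1 RPKM, PTGES entered the test of LE against GE through LE alone. The filter thus favoured LE on day 16, which held 4 of those 8 libraries. On the other days PTGES was not called (limma, adjusted p between 0.164 and 0.836). With that limit, LE minus GE on day 16 was 3.41 ± 0.63 (adjusted p = 9.19e-05), and 2.74 without LE replicate 31. The difference between the LE and GE changes from day 14 to day 16 was 2.87 ± 0.88 (adjusted p = 0.0549), and 0.00949, 0.0428 and 0.0272 without LE day 14 replicate B04 or LE day 16 replicates 25 or 27. Conceptuses of day 16 held 1.84 to 5.79 RPKM of PTGES beside 3914 to 10689 RPKM of interferon tau, while LE replicates 29 and 31 of that day held 15.9 and 45.1 RPKM of PTGES beside 2.81 and 12.7 RPKM of interferon tau. In LE the 8 stromal markers summed to 44.6 to 95.15 RPKM on day 16 and to 291 to 638 RPKM on day 14, and the 4 epithelial markers in the tables, of 6 listed, to 223 to 325 RPKM on day 16 and to 63.5 to 204 RPKM on day 14, without overlap in either. The part of conceptus RNA and of the makeup of the captured tissue in the PTGES values was not tested. Day 20 against day 16 was not called in LE (-2.15 ± 0.83, adjusted p = 0.372).

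PTGES3, also known as the Hsp90 co-chaperone p23 and as a cytosolic prostaglandin E synthase, was the most even member of the uterine epithelia. Its RPKM ran from 3.29 to 18.3 in LE and from 2.30 to 18.7 in GE, and it was above 1 RPKM in all 40 libraries. LE means lay between 5.41 and 9.89 RPKM and GE means between 8.55 and 12.0 RPKM over the 5 days, and LE and GE overlapped on each day. No step and no difference between LE and GE was called, and LE minus GE ran from -0.80 on day 10 to -0.24 on day 14 on the log2(RPKM + 1) scale.

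PTGIS, prostacyclin synthase, was at 1 RPKM or more in LE of day 10 alone among the epithelia. The libraries held 1.40, 2.45, 1.16 and 1.10 RPKM in LE on day 10, against 0.28, 0, 0 and 0.07 RPKM in GE. On day 12 LE had 0.04, 0.29, 0.09 and 0 RPKM. All 4 LE libraries of day 14 held 0 RPKM, where 3 reads over the group would make 0.0425 RPKM, and LE of days 16 and 20 reached 0.10 and 0.76 RPKM. The day 10 LE libraries lay above all other LE libraries and above all GE libraries. PTGIS passed the filter of 1 RPKM in 4 libraries only through those 4, so it had to differ. With that limit, limma gave a change in LE at day 12 against day 10 of -1.17 ± 0.25 on the log2(RPKM + 1) scale (adjusted p = 0.0305), LE minus GE on day 10 of 1.19 ± 0.18 (adjusted p = 5.80e-06), and a difference of the LE and GE changes of -1.12 ± 0.25 (adjusted p = 0.0276, where 0.35% of genes were called). The change in LE lost its call with a pseudocount of 0.1 (0.0676), with edgeR on recovered reads (0.459) and without any 1 of the day 12 replicates (adjusted p between 0.0527 and 0.122), and the difference of changes without LE day 12 replicates 09 or 15, GE day 10 replicates 04, 06 or 08, or GE day 12 replicates 10, 12 or 16 (0.0502 to 0.0836). The difference of changes also lost it with a pseudocount of 0.1 (0.276), edgeR on recovered reads (0.987) or a block of neighbouring sample numbers (0.134).

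**Figure D2:**
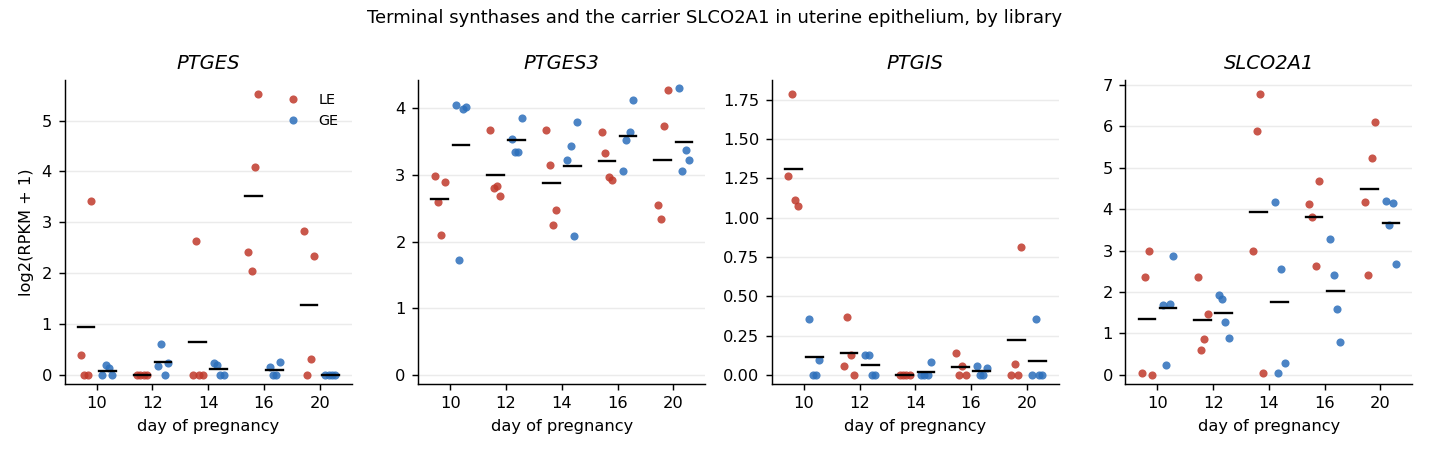
PTGES, PTGES3, PTGIS and SLCO2A1 in each LE (red) and GE (blue) library as log2(RPKM + 1) by day of pregnancy, with black bars at the mean of 4 libraries and a scale of its own for each gene. PTGES is above 3 RPKM in all 4 LE libraries of day 16 and of no other day, PTGIS is above 1 RPKM only in the day 10 LE libraries, and SLCO2A1 spreads from 0.04 to 109 RPKM among LE libraries of day 14.

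SLCO2A1, the prostaglandin carrier, had its highest LE values from day 14 on, with a wide spread between libraries. Day 10 gave 0.03, 4.15, 6.88 and 0 RPKM in LE, against 2.24, 0.18, 2.26 and 6.28 RPKM in GE. Day 12 gave 4.16, 0.51, 0.81 and 1.77 RPKM in LE, against 2.83, 2.57, 1.42 and 0.85 RPKM in GE. Day 14 gave 6.88, 58.3, 109 and 0.04 RPKM in LE, against 17.0, 0.04, 4.84 and 0.22 RPKM in GE. The 4 LE libraries of day 14 thus spanned nearly the whole range of the gene, with replicates B04 and B06 high and B08 at 1 read. Day 16 gave 16.5, 13.1, 5.14 and 24.6 RPKM in LE, against 8.77, 4.33, 2.03 and 0.72 RPKM in GE. Day 20 gave 17.0, 4.32, 36.5 and 67.7 RPKM in LE, against 17.3, 11.2, 16.7 and 5.35 RPKM in GE. LE and GE overlapped on each day, as did neighbours in the order of the day means of each tissue.

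No SLCO2A1 step was called by limma in LE or GE. LE day 14 against day 12 was 2.60 ± 1.07 on the log2(RPKM + 1) scale (adjusted p = 0.107), and without day 14 replicate B08 it was 3.89 (adjusted p = 0.00973). The authors' deposited table gives that step a fold change of 30.5 with an FDR p-value of 0.00859 for SLCO2A1. LE minus GE on day 14 was 2.16 ± 0.97 (adjusted p = 0.0787). Without LE replicate B08 or GE replicate B01 it was 3.45 (0.00284) or 2.96 (0.0203), and without LE replicate B06 it was 1.21. With TMM, upper quartile and RLE scaling the adjusted p of that difference was 0.0351, 0.039 and 0.0347, and with edgeR on recovered reads 0.0187. The endothelial markers (3 of 4 listed genes were in the tables), of a cell type known to carry SLCO2A1, summed to 40.1, 7.63, 14.6 and 46.0 RPKM in LE day 14 replicates B02, B04, B06 and B08. The LE libraries with the most SLCO2A1, B04 and B06, had the smaller sums, and the part of these cells in the result was not tested.

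HPGD, which inactivates prostaglandins, was lower in LE than in GE on days 10 and 12. Day 10 gave 4.34, 0.71, 1.57 and 1.07 RPKM in LE, against 47.8, 37.4, 41.5 and 37.6 RPKM in GE. On day 12 HPGD read 4.28, 3.25, 2.88 and 5.20 RPKM in LE and 18.3, 32.2, 37.99 and 32.5 RPKM in GE. LE and GE did not overlap on either day. Day 14 values were 7.33, 6.41, 0.04 and 10.6 RPKM in LE and 20.4, 23.7, 22.3 and 4.65 RPKM in GE. Day 16 values were 8.41, 9.80, 12.3 and 25.4 RPKM in LE and 19.1, 14.6, 24.6 and 24.8 RPKM in GE. Day 20 values were 9.56, 1.65, 2.18 and 21.2 RPKM in LE and 29.4, 28.1, 11.6 and 23.0 RPKM in GE. From day 14 on the ranges overlapped, through GE replicate B07 on day 14, LE replicate 31 on day 16 and LE replicate 23 on day 20.

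GE exceeded LE in mean HPGD by a ratio of 21.4 on day 10, 7.75 on day 12, 2.92 on day 14, 1.49 on day 16 and 2.66 on day 20. On the log2(RPKM + 1) scale LE minus GE was -3.99 ± 0.59 on day 10 (limma, adjusted p = 4.21e-06) and -2.65 ± 0.59 on day 12 (adjusted p = 0.00199), both past the threshold without any 1 library. It was -1.64 ± 0.59 on day 14 (adjusted p = 0.0274), -0.63 ± 0.59 on day 16 (adjusted p = 0.488) and -1.77 ± 0.59 on day 20 (adjusted p = 0.0458). The day 14 call ended with TMM, upper quartile and RLE scaling (adjusted p 0.13, 0.147 and 0.134), with edgeR on recovered reads (0.376), without LE replicate B06 (difference -0.86, 0.221) and without GE replicates B01 (0.0655), B03 (0.0760) or B05 (0.0742). The day 20 call was kept by none of the 7 other settings tried: the adjusted p was 0.118 with a pseudocount of 0.1, 0.0764 with no filter, 0.0853, 0.056 and 0.0845 with TMM, upper quartile and RLE scaling, 0.283 with edgeR on recovered reads and 0.0567 with a block of neighbouring sample numbers. It also ended without LE replicates 19 (0.165) or 21 (0.187) and without GE replicates 018 (0.117), 020 (0.112) or 024 (0.0982). Beside the high LE values of day 16, the gland markers summed to 1677, 3791, 2861 and 6282 RPKM in LE replicates 25, 27, 29 and 31, so that replicate 31 led in both. In GE they summed to 417 to 3829 RPKM on that day. FOXA2, 1 of these markers, was at 0 in all 4 of these LE libraries, but at its lowest it came near 0 in GE too. The part of gland RNA in the HPGD values was not tested.

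Within each tissue no day step of HPGD was called. GE day 14 against day 12 was -0.90 ± 0.41 (limma, adjusted p = 0.140, and 0.0191 with upper quartile scaling), and LE day 16 against day 14 was 1.40 ± 0.70 (adjusted p = 0.193). The LE and GE changes of HPGD did not differ past the threshold at any step (adjusted p between 0.553 and 0.905). Set side by side in RPKM, PTGS2 exceeded HPGD in 19 of 20 LE libraries and in 0 of 20 GE libraries. The exception in LE was a day 10 library. The ratio of PTGS2 to HPGD had a median of 26.6 in LE and 0.0575 in GE.

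**Figure D3:**
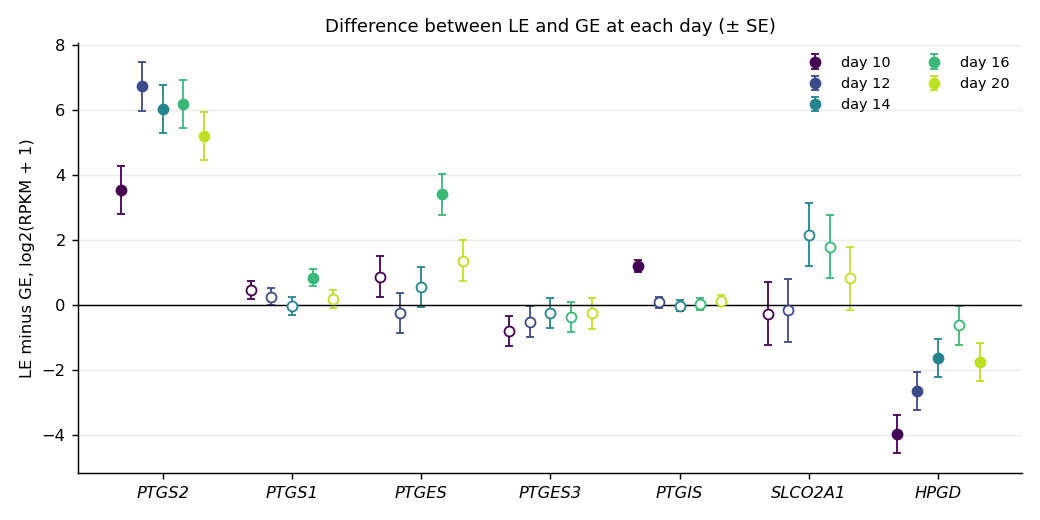
Difference of LE minus GE on the log2(RPKM + 1) scale for the 7 members at each day, as the limma estimate with bars of 1 SE, filled where the adjusted p is under 0.05. PTGS2 is filled above 0 on all 5 days and HPGD below 0 on days 10, 12, 14 and 20, while PTGES and PTGS1 are filled on day 16 and PTGIS on day 10 only.

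All 7 members were tested for LE against GE. Higher in LE were 2, 1, 1, 3 and 1 members at days 10, 12, 14, 16 and 20, and lower in LE were 1, 1, 1, 0 and 1, where 2.65, 3.03, 8.75, 6.76 and 4.29% of all genes were higher and 11.6, 9.17, 27.1, 15.7 and 6.44% lower. Among the higher ones, PTGIS on day 10 and PTGES and PTGS1 on day 16 had passed the filter through LE alone, and without them PTGS2 was the 1 higher member on each day. The median difference of the 7 was 0.47, -0.16, -0.02, 0.84 and 0.18 on the log2(RPKM + 1) scale at those days. At day 12 in LE PTGS2 was called higher, where 0.315% of all genes rose. That PTGS2 call depended on single libraries, and it ended with no filter on low values and with edgeR on recovered reads. PTGIS was called lower, where 0.25% of all genes fell, but it had passed the filter through day 10 alone and its call is not read against that share. At day 14, 0 of the 7 were called, where 13.1% of all genes were called, 3.39% higher and 9.76% lower. At day 16, 1 rose (PTGES), where 11% of all genes rose and 1.4% fell. At day 20, 0 of the 7 were called, where 0.261% of all genes were called, 0.109% higher and 0.152% lower. An unadjusted limma p under 0.05 was found for SLCO2A1 at day 14 and for PTGES at day 20, and edgeR on recovered reads called SLCO2A1 at day 14 (adjusted p = 0.0295) and 0 members at day 20. The median change of the 7 in LE was 0.01, 0.04, 0.33 and 0.01 for the steps to days 12, 14, 16 and 20, beside 0.18, -0.34, 0.49 and -0.03 for all genes.

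In GE, 4 of the 7 members passed the filter (PTGS2, PTGES3, HPGD and SLCO2A1) and 0 of them was called at any step, by limma or by edgeR on recovered reads. Of all GE genes, 0.527, 16, 17.5 and 0.308% were called for the steps to days 12, 14, 16 and 20. At an unadjusted p under 0.05 stood HPGD at day 14, PTGS2 at day 16, and PTGS2 and SLCO2A1 at day 20. The difference of LE and GE changes called PTGIS at day 12, with the same limit of the filter, and 0 of the 7 at days 14, 16 and 20, where 2.61, 4.16 and 0.467% of all genes were called. At day 16, PTGES and PTGS1 had an unadjusted p under 0.05 in that test, and at day 20 PTGES had, while edgeR on recovered reads called 0 members at each step.

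EP4, the receptor listed as PGE2R-EP4, was near the floor of the epithelia. It reached 1.25 RPKM at most in LE and 0.43 RPKM in GE, and it did not pass the filter of either tissue.

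Beyond the members, 30 of 41 listed genes of the pathway were in the tables and 14 were tested for LE against GE. Higher in LE was 1 gene on each day, and lower in LE were 3, 2, 4, 4 and 1 genes at days 10, 12, 14, 16 and 20, beside 2.65, 3.03, 8.75, 6.76 and 4.29% of all genes higher and 11.6, 9.17, 27.1, 15.7 and 6.44% lower. PLA2G4A, the cytosolic phospholipase that releases arachidonic acid, was the higher one on days 10, 12 and 14. It averaged 51.5 ± 26.9 RPKM in LE and 9.86 ± 4.09 RPKM in GE on day 10, and 84.0 ± 40.2 RPKM in LE and 14.0 ± 3.70 RPKM in GE on day 12 (SD, n = 4 each). On day 14 it averaged 72.0 ± 24.8 RPKM in LE and 12.1 ± 5.22 RPKM in GE (LE minus GE 2.49 ± 0.46 on the log2(RPKM + 1) scale, limma adjusted p = 6.16e-05). PTGER3, the receptor EP3, was the higher one on days 16 and 20, though it stayed under 1 RPKM in all GE libraries and so entered through LE alone, with 5.52 ± 3.23 RPKM in LE and 0.133 ± 0.168 RPKM in GE on day 16 (2.39 ± 0.44, adjusted p = 8.92e-05).

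PTGR1, prostaglandin reductase 1, which acts after HPGD, was lower in LE on days 10, 14 and 16, the day 10 call ending with TMM, upper quartile and RLE scaling (limma adjusted p = 0.201, 0.156 and 0.186), with a pseudocount of 0.1 (0.0569), with edgeR on recovered reads (0.331) and without LE replicate 07 (0.0806) or GE replicates 02 (0.0521), 06 (0.0537) or 08 (0.0711). On day 16 it averaged 8.88 ± 10.0 RPKM in LE and 171.6 ± 77.7 RPKM in GE (-4.46 ± 0.62, adjusted p = 1.27e-06). Its change at day 20 against day 16 was higher in LE than in GE by 3.67 ± 0.88 (adjusted p = 0.0392). That call ended under 6 of the 7 other settings, all but the block of neighbouring sample numbers (adjusted p between 0.0667 and 0.286), and without any 1 of 11 libraries, LE replicates 27, 29, 31, 21 and 23 and GE replicates 26, 28, 30, 018, 020 and 022 (adjusted p between 0.0716 and 0.127). The secreted phospholipase PLA2G10 was lower in LE on all 5 days, with 2.01 ± 2.33 RPKM in LE and 69.7 ± 32.9 RPKM in GE on day 20 (-4.88 ± 0.88, adjusted p = 0.000163). The day 10 difference of PLA2G10 was -2.73 ± 0.88 (adjusted p = 0.0299), and it ended with edgeR on recovered reads (0.571, beside 0.318 on day 12), with no filter (0.0605), under TMM, upper quartile and RLE scaling (0.114, 0.0974 and 0.107) and at 0.0649 to 0.128 without LE replicates 01, 03 or 07 or GE replicates 04, 06 or 08. MGLL, monoacylglycerol lipase, stayed under 1 RPKM in all LE libraries and so entered the test through GE alone. With that limit, which also holds for its place in the counts above, MGLL was lower in LE on days 10 to 16. By edgeR on recovered reads it was not called on days 10 (0.198) and 12 (0.0567). The phospholipase PLA2G12A was lower in LE on days 14 and 16, the day 16 call ending with a pseudocount of 0.1 (0.061), with edgeR on recovered reads (0.219), under TMM and RLE scaling (0.0546 and 0.0538) and without LE replicate 27 (0.0857).

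Between days, 12 of the listed genes were tested in LE and 12 in GE. In LE, 2 fell at day 14 (9.76% of all genes) and 2 rose at day 16 (11% of all genes), and in GE 1 was called at day 14 (16% of all genes). All of these are steps to or from day 14 and share the limit of its separate numbering. PLA2G12A averaged 0.075 ± 0.09 RPKM on day 14 and 4.36 ± 0.702 RPKM on day 12 in LE (-2.31 ± 0.50, limma adjusted p = 0.00517), and 4.33 ± 2.91 RPKM on day 16 (2.15 ± 0.50 against day 14, adjusted p = 0.00883). PLCB1, a phospholipase C, fell in LE at day 14, to 2.08 ± 2.92 RPKM against 23.1 ± 9.51 RPKM on day 12 (adjusted p = 0.0102, and 0.068 with edgeR on recovered reads). PTGER3 rose in LE at day 16, to 5.52 ± 3.23 RPKM against 1.12 ± 2.01 RPKM on day 14 (adjusted p = 0.0395). That call ended with no filter (0.099), with TMM and RLE scaling (0.0536 and 0.0705), with edgeR on recovered reads (0.393), with both days alone (0.137) and without day 14 replicates B02, B06 or B08 or day 16 replicates 25, 29 or 31 (0.0613 to 0.119). HPGDS, a synthase of prostaglandin D, fell in GE at day 14, where all 4 libraries were at 0, against 1.35 ± 0.607 RPKM on day 12 (adjusted p = 0.0258, and 0.0711 and 0.0838 without day 12 replicates 12 and 16). HPGDS was near the floor in GE, reaching 2.71 RPKM at most, and no library of day 14 or 16 held 1 RPKM. It passed the GE filter through libraries of days 10, 12 and 20 only.

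In the conceptus, the libraries of day 12 stood apart before any comparison. Their RPKM summed to 158575 to 198605 per library, against 437557 to 533902 on days 14 to 20. Their deposited gene reads also exceed the reads that their RPKM imply at the gene lengths of the later days. These implied reads, called exon reads here although the files do not name what they count, made up a median of 93.3% of the gene reads of PTGS2, 80.1% of SLCO2A1, 41.2% of HPGD, 40.2% of PTGES3, 31.4% of PTGES, 31.3% of PTGS1 and 22.6% of PTGIS. PTGES3 ran from 204 to 614 RPKM in the 12 libraries made without amplification and from 2.30 to 18.9 RPKM in the 45 amplified ones, and PTGIS from 17.2 to 82.6 and from 0 to 7.68 RPKM, while the other 5 members overlapped between them. These libraries also differ in tissue and stage. Day 14 against day 12 therefore cannot be told apart from the change of preparation and counting, for any member.

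PTGS2 in the conceptus was highest on day 14, when it lay above the other members in all 4 libraries. Its RPKM was 42.1, 141, 91.2, 149.6 and 152 on day 12 and 4402, 1141, 1048 and 3440.4 on day 14. It was 757, 499.6, 156 and 416 RPKM on day 16 and 68.2, 51.9, 46.3 and 49.2 RPKM on day 20. Days 14, 16 and 20 did not overlap with each other, and on day 14 replicates 1 and 4 lay above replicates 2 and 3. The log2 fold change of gene reads in edgeR was -2.91 ± 0.53 for day 16 against day 14 (adjusted p = 0.000385) and -3.09 ± 0.54 for day 20 against day 16 (adjusted p = 0.000489). Day 14 against day 12 was 4.43 ± 0.52 (adjusted p = 7.27e-07), and 3.23 on recovered exon reads (adjusted p = 1.69e-05). In all 17 conceptus libraries PTGS2 was above HPGD in RPKM, with a median ratio of 15207 on day 14, 183 on day 16 and 8.21 on day 20.

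PTGS1 was barely present in the conceptus. It was listed at 0.0289, 0.0486, 0, 0.143 and 0.0991 RPKM on day 12, at 0.0359, 0, 0.0301 and 0 RPKM on day 14, at 0.560, 0.615, 0.133 and 0.438 RPKM on day 16 and at 1.11, 1.11, 0.168 and 0.711 RPKM on day 20. Day 16 lay above day 14 without overlap, on 55 reads against 2. The ratio of these reads per gene read was 29.2, with a 95% exact interval of 7.70 to 247 for counting error only, and edgeR's adjusted p was 0.00696. Day 14 was lower than day 12 by edgeR on gene reads (adjusted p = 0.00609), and on exon reads, 2 against 12 in all, the adjusted p was 0.0241. Day 20 against day 16 was not called (adjusted p = 0.423).

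PTGES fell further than the other members at day 16. Day 12 held 5.02, 9.60, 9.22, 11.0 and 2.80 RPKM, and day 14 held 50.9, 116, 114 and 64.3 RPKM. On day 16 it was 4.14, 3.94, 1.84 and 5.79 RPKM, and on day 20 it was 29.2, 12.5, 4.71 and 2.74 RPKM. All 4 libraries of day 14 lay above every other conceptus library. PTGES fell at day 16 against day 14 by 4.90 ± 0.60 on the log2 scale (edgeR, adjusted p = 1.31e-05). At day 20 it rose against day 16 by 1.61 ± 0.56 (adjusted p = 0.0337), a step that rests on single libraries: leaving out replicate 1, 2 or 4 of day 16 gave an adjusted p of 0.0649, 0.0684 or 0.0916. Leaving out replicate 1 or 3 of day 20 gave 0.248 or 0.0607, with a change of 0.77 without replicate 1. Limma on log2(RPKM + 1) gave 0.121, and days 16 and 20 alone 0.0966. Day 14 against day 12 was 1.86 ± 0.47 (adjusted p = 0.00189).

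PTGES3 stood at 475.5, 556, 614 and 486 RPKM on day 14, 350.4, 371, 376 and 319 RPKM on day 16 and 249, 204, 254 and 282 RPKM on day 20. The 3 days did not overlap. It fell by 1.02 ± 0.14 at day 16 against day 14 (edgeR, adjusted p = 3.70e-05) and by 0.53 ± 0.14 at day 20 against day 16 (adjusted p = 0.00845). PTGIS stood at 50.1, 63.9, 68.8 and 63.2 RPKM on day 14, 52.4, 82.6, 56.7 and 79.4 RPKM on day 16 and 33.4, 17.2, 19.2 and 39.2 RPKM on day 20. Days 14 and 16 overlapped and day 20 lay below both. PTGIS was not called at day 16 (-0.30 ± 0.32, adjusted p = 0.451) and fell by 1.32 ± 0.32 at day 20 (adjusted p = 0.00531). Against day 12, at 12.2 to 18.9 RPKM for PTGES3 and 1.85 to 7.68 RPKM for PTGIS, day 14 was higher by 4.00 ± 0.15 for PTGES3 (adjusted p = 1.18e-12) and by 2.22 ± 0.31 for PTGIS (adjusted p = 5.37e-06), and by 2.95 for PTGIS on recovered exon reads. In mean RPKM these ratios were 37.7 for PTGES3 and 17.4 for PTGIS.

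SLCO2A1 reached its highest level on day 20. Day 12 gave 3.88, 1.92, 6.44, 3.39 and 5.595 RPKM, and day 14 gave 60.3, 34.7, 23.8 and 38.1 RPKM. Day 16 gave 18.1, 22.0, 17.2 and 17.2 RPKM, and day 20 gave 76.6, 156, 113 and 89.5 RPKM. None of the 4 days overlapped with another. SLCO2A1 fell by 1.51 ± 0.32 at day 16 against day 14 (edgeR, adjusted p = 0.00116) and rose by 2.54 ± 0.33 at day 20 against day 16 (adjusted p = 5.38e-05). Day 14 was higher than day 12 by 3.02 ± 0.31 (adjusted p = 1.59e-07), and by 2.04 on recovered exon reads. The endothelial markers summed to 29.8 to 113 RPKM on day 20, against 0.502 to 23.0 RPKM on day 16, and their part in the result was not tested.

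HPGD was lowest where PTGS2 was highest. It was 0.486, 0.587, 0.280, 0.527 and 0.486 RPKM on day 12 and 0.151, 0.140, 0.158 and 0.155 RPKM on day 14, from 4 or 5 reads a library. It was 4.21, 2.25, 0.838 and 3.91 RPKM on day 16 and 11.4, 3.55, 5.89 and 5.74 RPKM on day 20. Day 16 lay above day 14 without overlap, and days 16 and 20 overlapped. HPGD rose by 3.73 ± 0.50 at day 16 against day 14 (edgeR, adjusted p = 2.61e-05) and by 1.24 ± 0.40 at day 20 against day 16 (adjusted p = 0.0222). The day 20 step lost its call with days 16 and 20 alone (adjusted p = 0.0814) and without day 16 replicate 2 (adjusted p = 0.0632) or day 20 replicate 1 (0.0963). Day 14 was lower than day 12 by edgeR (-2.71 ± 0.49, adjusted p = 8.02e-05) but not by limma on log2(RPKM + 1), at -0.35 (adjusted p = 0.253). The 6 endoderm markers summed to 232 to 331 RPKM on day 14, 359 to 1750 RPKM on day 16 and 1714 to 2431 RPKM on day 20, and their part in the rise was not tested. Day 16 replicate 4 stood apart, with 359 RPKM of endoderm and 12.1 RPKM of stromal markers. The others of that day had 869 to 1750 and 386 to 1625 RPKM. Replicate 4 was also the lowest of day 16 for HPGD, PTGS2, PTGS1 and PTGES, and the highest for PTGES3.

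**Figure D4:**
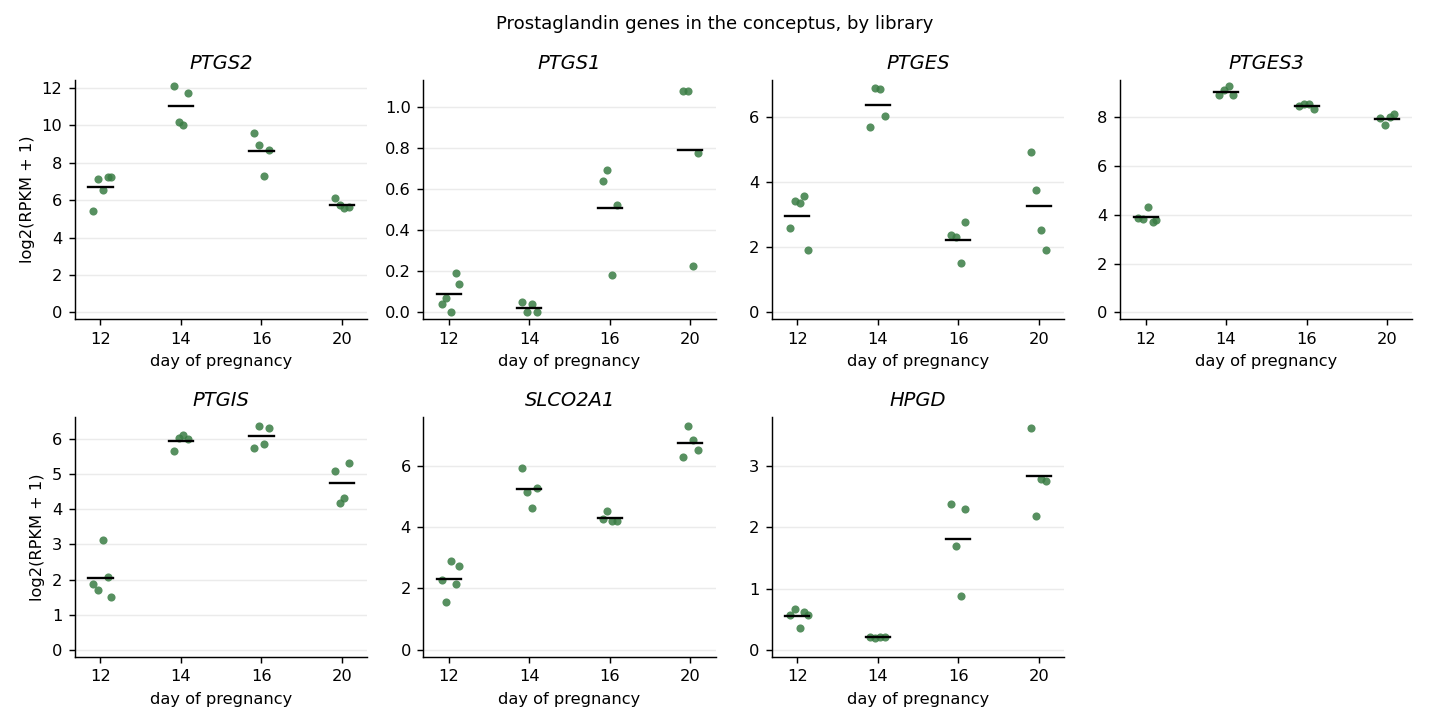
The 7 members in each conceptus library as log2(RPKM + 1) by day of pregnancy, with black bars at the mean (n = 5 on day 12, n = 4 on later days) and a scale of its own for each gene. PTGS2, PTGES and PTGES3 have their highest values on day 14, while SLCO2A1 and HPGD have theirs on day 20.

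**Figure D5:**
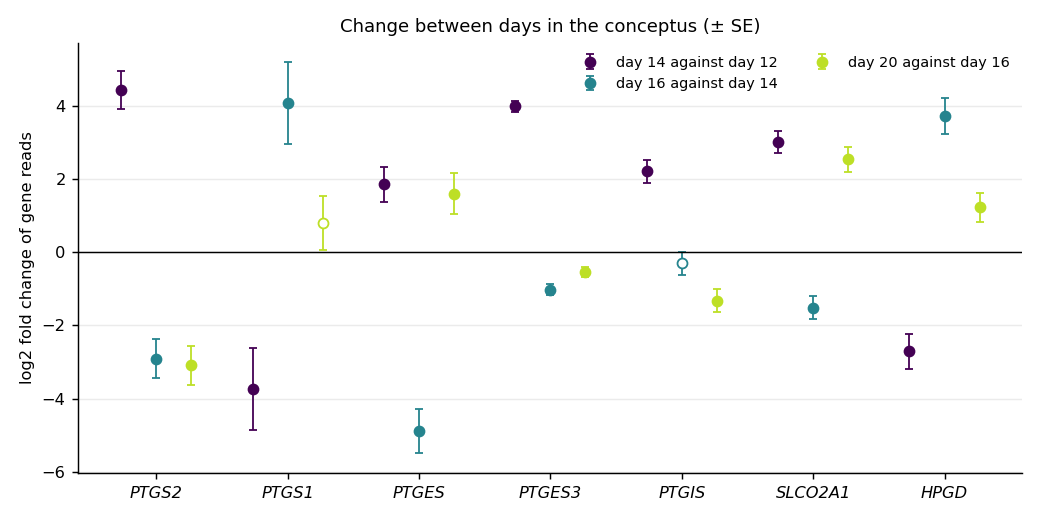
Log2 fold change of gene reads in the conceptus between neighbouring days for the 7 members, as the edgeR estimate with bars of 1 SE, filled where the adjusted p is under 0.05. At day 16 against day 14, PTGS2, PTGES, PTGES3 and SLCO2A1 lie below 0 while PTGS1 and HPGD lie above it, and at day 20 against day 16 PTGS2, PTGES3 and PTGIS lie below 0 while PTGES, SLCO2A1 and HPGD lie above it.

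All 7 members were tested in the conceptus. At day 14 against day 12, 5 were higher and 2 lower, where 76.1% of the 13918 genes tested were called, 38.1% higher and 38% lower. At day 16 against day 14, 2 rose and 4 fell (49.9% of all genes called, 25.6% higher and 24.3% lower), and at day 20 against day 16, 3 rose and 3 fell (36.9% of all genes called, 18.1% higher and 18.9% lower). Their median log2 fold change was 2.22, -1.02 and 0.80 for the steps to days 14, 16 and 20, beside -0.01, 0.06 and -0.02 for all genes. EP4, listed as PGE2R-EP4, held 0 to 0.145 RPKM on day 12, 0.216 to 0.437 RPKM on day 14, 0.469 to 0.655 RPKM on day 16 and 0.580 to 1.09 RPKM on day 20.

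Of the other listed pathway genes, 21 were tested in the conceptus. For the steps to days 14, 16 and 20, 2, 6 and 10 were higher and 14, 3 and 1 were lower, beside 38.1, 25.6 and 18.1% of all genes higher and 38, 24.3 and 18.9% lower. For these genes too, the step to day 14 cannot be told apart from the change of preparation and counting. HPGDS, for example, had an edgeR log2 fold change of -4.63 on gene reads in that step. Its mean RPKM was 0.0927 on day 12 and 0.0721 on day 14. ABCC2, an efflux carrier of organic anions, fell to 11.4 ± 4.66 RPKM on day 16, against 47.9 ± 8.83 RPKM on day 14 (log2 fold change -2.50 ± 0.36, edgeR adjusted p = 4.78e-05), and to 0.919 ± 0.424 RPKM on day 20 (-3.64 ± 0.39 against day 16, adjusted p = 1.12e-05). SLCO4A1, an organic anion carrier, rose to 4.41 ± 1.99 RPKM on day 20, against 0.174 ± 0.122 RPKM on day 16 (4.66 ± 0.53, adjusted p = 1.89e-05). PTGFR, the receptor of prostaglandin F, rose to 3.80 ± 1.62 RPKM on day 20, against 0.335 ± 0.179 RPKM on day 16 (adjusted p = 0.00148). The 8 stromal markers summed to 4322 to 14535 RPKM on day 20 and to 12.1 to 1625 RPKM on day 16, and their part in these rises was not tested. PTGR1 rose to 91.5 ± 26.7 RPKM on day 16, against 25.7 ± 7.39 RPKM on day 14 (1.42 ± 0.33, adjusted p = 0.00210). In the step to day 14, PLA2G12A and PLA2G6 were lower by edgeR and higher by limma on log2(RPKM + 1), by 0.49 and 0.88. PLA2G4A held 1.51 ± 1.26 RPKM on day 16 and 0.502 ± 0.212 RPKM on day 14, and 22.3 ± 10.2 RPKM on day 12 (SD, n = 5).

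Among all genes with a symbol, those whose log2(RPKM + 1) followed PTGS2 most closely over the 40 LE and GE libraries were IGFBP1 (Pearson r = 0.94), LGALS15 (0.93) and IGFBP3 (0.92). For HPGD they were ACSM3 (0.90), MAGI1 (0.82) and GNPTAB (0.82), and for PTGES FBXO40 (0.82), PTPRU (0.82) and LNX1 (0.79). PTGIS was closest to SCHIP1 (0.88), SLCO2A1 to PRKCDBP (0.75), PTGS1 to LY6G6C (0.68) and PTGES3 to ARIH1 (0.66). Over the 17 conceptus libraries the closest were IL17F for PTGS2 (0.94), SCARA5 for PTGES (0.92), PLG for HPGD (0.97), PELI1 for SLCO2A1 (0.96), PSMB2 for PTGIS (0.99) and AGPAT6 for PTGES3 (0.999). These are descriptions: libraries of a tissue and day share their preparation. LE and GE were pooled for the 40 libraries, and PTGS2 did not overlap between them on any day. A gene that differs between LE and GE in the same way can thus reach a high r from that difference alone. PTGIS reached 1 RPKM in LE of day 10 only, so its r there rests largely on those libraries. In the conceptus, day 12 was prepared apart from the later days. PTGES3, PTGIS and SLCO2A1 also lay lower in every day 12 library than in any later conceptus library.

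The authors' deposited table, from their own EDGE test, gave the conceptus PTGS2 fold changes of 9.50, -7.39 and -8.56 for the steps to days 14, 16 and 20, a minus sign marking a fall. The same authors' deposited table gave PTGES a fold change of -28.2 at day 16 with an FDR p-value of 7.58e-19. For HPGD it gave 8.05 at day 16 with an FDR p-value of 0.0744, in the authors' deposited table. The authors' deposited table also gave HPGD -4.35 at day 14 (FDR p-value 0.609) and 2.27 at day 20 (FDR p-value 0.241), and PTGES 2.95 at day 20 (FDR p-value 0.0544). For conceptus PTGS1 the authors' deposited table gave -1.91 at day 14 and 3.19 at day 16, with FDR p-values above 0.05. Each of these HPGD, PTGS1 and day 20 PTGES steps was called here by edgeR. In LE the authors' deposited table gave PTGS2 a fold change of 4.79 at day 12 with an FDR p-value of 1, and PTGES 9.65 at day 16 with an FDR p-value of 0.32.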

How the data were processed

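RNA was sequenced from 20 LE, 20 GE and 17 conceptus libraries of sheep. The genome build was Oar_v3.1, per the submitters' processing notes; the aligner, annotation and counting rule were not given in the sources used here. RPKM had been computed by the authors per library, per the file headers. For the conceptus the authors also deposited gene read counts, which were tested. The authors' deposited fold change is a score with a sign, and their p-value is the FDR of an EDGE test, per the file headers. Of 25197 rows in each table, 23 had no identifier and were left out.

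LE and GE were tested with limma (3.58.1) on log2(RPKM + 1) with a mean-variance trend, over genes at 1 RPKM or more in at least 4 libraries, because their files hold RPKM and no counts. The conceptus counts were tested with edgeR's quasi-likelihood test (4.0.16) after TMM scaling and edgeR's own filter. Each tissue had a fit of its own over its days, and a joint fit of LE and GE served the tissue comparisons. P-values were Benjamini-Hochberg adjusted over all genes of a comparison, with a threshold of 0.05. Genes past it are said to rise or fall.

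RPKM values are whole reads divided by gene length and depth. Lengths of 18942 features and the depth of each library were recovered from the values, and 99.8 to 100% of low values came out whole within 0.1 read. edgeR was run on these reads, called exon or recovered reads, as an alternative for LE and GE, and for the conceptus as an alternative chosen after seeing the data. DESeq2 (1.42.0) was another alternative for the conceptus.

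The members, the 41 other pathway genes, the marker genes and the rule for naming the closest genes (the highest Pearson r of log2(RPKM + 1)) were chosen with earlier results of these data known. All members are named, and other pathway genes mostly where called. The labels do not say that libraries come from separate animals, so p-values measure the spread between these libraries. The methods were tested on simulated data. R 4.3.3 and Python 3.11.15 were used.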

Additional observations from a re-analysis of the deposited data

Results flagged for a closer look

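In a comparison of the highest and lowest library of each group with its neighbours, 8 of the 70 member groups that reached 1 RPKM held a library that stood far from the others. The cut-off would pick about 1 in 20 groups by chance if RPKM were normally distributed. RPKM need not be, as PTGES in LE on day 14 was at 0 in 3 of 4 libraries. The count is therefore not read against that share. PTGS2 was at 152 RPKM in LE day 10 replicate 05 and at 1.97 RPKM in GE day 16 replicate 28, each the highest of its group. PTGES was at 9.70 RPKM in LE day 10 replicate 07 and at 5.17 RPKM in LE day 14 replicate B04, beside values of 0 to 0.31 RPKM. PTGES3 was at 11.8 RPKM in LE day 12 replicate 09, the highest, and at 2.30 RPKM in GE day 10 replicate 04, the lowest. Day 12 conceptus replicate 3 was the highest of its group for PTGES3, at 18.9 RPKM, and for PTGIS, at 7.68 RPKM.

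PTGIS differed between tissues in its change at day 12 against day 10, by -1.12 on the log2(RPKM + 1) scale for LE minus GE, in the test of the difference itself. It had entered that test only through the LE libraries of day 10, and the call ended with a pseudocount of 0.1, with edgeR on recovered reads and with a block of neighbouring sample numbers (adjusted p 0.276, 0.987 and 0.134). PTGR1 differed likewise in its change at day 20 against day 16, by 3.67, a call that 1 of 7 other settings kept.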

How the results depend on the processing

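Over all member tests, limma called 3 in LE, and 1 with no filter on low values and 1 with edgeR on recovered reads. In GE it called 0, and 1 with a pseudocount of 0.1 and with TMM, upper quartile or RLE scaling. For the difference of LE and GE changes it called 1, and 0 with a pseudocount of 0.1, with edgeR on recovered reads and with a replicate block of neighbouring sample numbers. The causes were not tested. LE against GE gave 12 calls, and 10 to 11 under the other settings. The conceptus gave 19, and 15 to 19. Leaving out each library in turn gave 1 to 4 calls in LE, 0 to 1 in GE, 10 to 13 for LE against GE, 0 to 2 for the difference of changes and 17 to 19 in the conceptus. No called member change turned its direction in any of these settings. Calls over all genes moved with the setting too, so the member counts are not read as stable by themselves. For LE day 12 against day 10, limma called 52 of 9203 genes. There edgeR on recovered reads called 4 higher and 0 lower of 10720, and both days alone gave 158 and 76 of 7101. For conceptus day 14 against day 12, edgeR called 5300 higher and 5286 lower of 13918 genes, and limma on log2(RPKM + 1) 7940 and 1452 of 12081.

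The deviations of neighbouring LE and GE numbers from their group means had an r between -0.07 and 0.19 (median 0.05, over 0.1 in 6 of 20), and 15 of 20 LE libraries correlated best with the neighbouring GE number, a hint of pairs from the data and not from the labels. With these pairs as a replicate block, LE against GE gave 11 calls, and HPGD on day 20 had an adjusted p of 0.0567. With conceptus numbers as a block the count was 18, with PTGES at day 20 against day 16 at an adjusted p of 0.108 by edgeR. Depth limits PTGS1, PTGES and PTGIS in LE and GE, where most values rest on few reads.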
